A study of Mus musculus with 33 samples.

Results

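Mouse ESCs that lacked HP1β and HP1γ were compared with ESCs that lacked HP1α and HP1γ, so that the former kept HP1α as their only HP1 paralog and the latter kept HP1β. The comparison takes the 3 RNA-seq libraries whose genotype label names the *Hp1β/γ* Δ/Δ double mutant and the 3 libraries labelled *Hp1α/γ* Δ/Δ, which are 6 of the 33 libraries in the series. Both lines are constitutive knockouts of C57BL/6 ESCs with no treatment given, and both have lost *Hp1γ*. They were made with CRISPR/Cas9 and pairs of guides, and clones were picked one by one, but the labels do not say whether the 3 libraries of a genotype came from separate clones, so the p values measure the spread between these libraries. The ESCs were grown on mouse embryonic fibroblast (MEF) feeders and freed of them by a short plating on gelatin, so some MEF RNA can remain. The *Hp1α* Δ/Δ and *Hp1β* Δ/Δ single mutants, with 3 libraries each, and *wild-type* set B, the 3 *wild-type* libraries deposited with both double mutants, were used beside them. All single mutants and the *Hp1α/β* Δ/Δ double mutant were deposited with another *wild-type* set. In levels compared across the sets, a difference between sets cannot be told apart from one of genotype.

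HP1 proteins read histone H3 methylated at lysine 9 (H3K9me2/3) through a chromodomain and join other factors through a chromoshadow domain. They occupy pericentromeric heterochromatin as well as silenced genes and repeats in euchromatin, and HP1γ is also found over transcribed gene bodies. In ESCs they work with the H3K9 methyltransferases that keep lineage genes, germline genes and retroviral elements silent. The genes of HP1α, HP1β and HP1γ are *Cbx5*, *Cbx1* and *Cbx3*.

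The designed guides that define both genotypes are given 5′ to 3′ in lower case, as a pair for each gene. The *Hp1β/γ* Δ/Δ line combines the HP1β and HP1γ pairs, and the *Hp1α/γ* Δ/Δ line the HP1α and HP1γ pairs. The HP1β upstream guide was found in the annotated transcripts of its gene, at chr11:96801311-96801330 on the plus strand of GRCm38, and is followed there by the PAM shown in capitals. This place lies in an exon of 1 of the 5 *Cbx1* transcripts of GENCODE M21, a retained-intron form, and in an intron of the other 4. The other 5 guides were not found in the annotated transcripts of their genes, and their places in the genome were not determined.
HP1α upstream: ctcgccagttctgccgagat
HP1α downstream: ggctgagtgagaactagtag
HP1β upstream: tactaggaaagtctagcgatTGG
HP1β downstream: tcttgcatagaagcctaggc
HP1γ upstream: gaggtgcttacactggatca
HP1γ downstream: tatgatagccttgccgagcg

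The mRNA levels of the targeted genes followed the labels for *Cbx1* and *Cbx5*. *Cbx1* had 66.1, 65.3 and 66.5 CPM (counts scaled by TMM to a common library size) in the 3 *Hp1β/γ* Δ/Δ libraries, 351, 369 and 372 CPM in the *Hp1α/γ* Δ/Δ libraries and 393, 359.9 and 373 CPM in *wild-type* set B. *Cbx5* had 444, 454 and 431 CPM in *Hp1β/γ* Δ/Δ cells, 178, 81.7 and 178 CPM in *Hp1α/γ* Δ/Δ cells and 458, 431 and 423 CPM in *wild-type* ESCs. Each gene was low in all 3 libraries of the genotype that should lack it, and the *Hp1α/γ* Δ/Δ library with 81.7 CPM of *Cbx5* was replicate 2. The log2 fold change of *Hp1β/γ* Δ/Δ over *Hp1α/γ* Δ/Δ cells was −2.41 (SE 0.08, adjusted p = 1.33e-05) for *Cbx1* and 1.64 (SE 0.30, adjusted p = 0.00444) for *Cbx5* by the quasi-likelihood test of edgeR (Benjamini-Hochberg adjustment, SE for the standard error). *Cbx3*, lost in both lines, had 65.4, 61 and 63.5 CPM in *Hp1β/γ* Δ/Δ cells, 78.3, 96.2 and 82.6 CPM in *Hp1α/γ* Δ/Δ cells and 192, 151 and 169 CPM in *wild-type* ESCs. The groups of double mutants did not overlap for *Cbx3*, but the log2 difference of −0.38 was within the threshold of 1. Reads of the deleted genes thus remained in every mutant library, and counts summed over a gene do not show which exons they come from.

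Per length of transcript, *Cbx1* was the most abundant of the 3 paralogs in *wild-type* set B, with 395 ± 6.53 TPM (SD, n = 3) in the values deposited by the authors, against 149 ± 16.7 TPM (SD, n = 3) for *Cbx3* and 73.8 ± 1.83 TPM (SD, n = 3) for *Cbx5*. The paralog that each double mutant kept was at 72.9 ± 2.23 TPM (SD, n = 3) for *Cbx5* in *Hp1β/γ* Δ/Δ cells and 287 ± 56.7 TPM (SD, n = 3) for *Cbx1* in *Hp1α/γ* Δ/Δ cells. The CPM of neither retained paralog differed from *wild-type* set B past the threshold, with log2 differences of 0.02 (adjusted p = 0.732) and −0.10 (adjusted p = 0.443) in edgeR. The ESC identity of both lines was read from *Pou5f1*, *Sox2*, *Nanog*, *Zfp42*, *Esrrb* and *Dppa5a*, all of which were expressed in all 6 libraries, the lowest at 38.7 CPM (*Zfp42* in *Hp1β/γ* Δ/Δ cells).

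**Figure D1:**
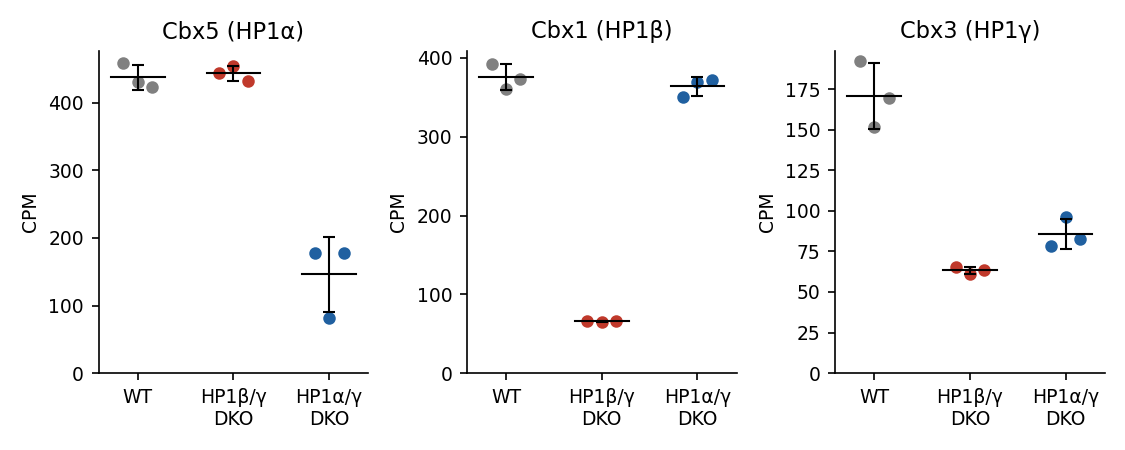
mRNA level in CPM of the 3 HP1 genes in each library of *wild-type* set B (grey), *Hp1β/γ* Δ/Δ (red) and *Hp1α/γ* Δ/Δ (blue) ESCs, with the mean as a line and the SD as error bars. In *Hp1β/γ* Δ/Δ ESCs *Cbx1* sat at 65.3 to 66.5 CPM, and in *Hp1α/γ* Δ/Δ ESCs *Cbx5* at 81.7 to 178 CPM, while *Cbx3* was low in both.

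One library stood apart before any gene was compared. In the first quartile of transcript length among tested genes (40 to 1664 bases), the median gene of *Hp1α/γ* Δ/Δ replicate 2 lay 0.52 above the other 2 libraries of its group on the log2(CPM + 0.5) scale, and in the last quartile (from 4154 bases) it lay at −0.44. For the *Hp1β/γ* Δ/Δ and *wild-type* libraries the same medians stayed between −0.03 and 0.04. The library had 23228375 counts, within the range of 22516230 to 25743149 of the 6 libraries. The biological coefficient of variation of the comparison was 0.179 with it and 0.0388 without it, and the main counts are therefore also given without this library. The median log2 fold change of all genes went from −0.27 in the first quartile to 0.27 in the last, and from −0.09 to 0.10 without the library.

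**Figure D2:**
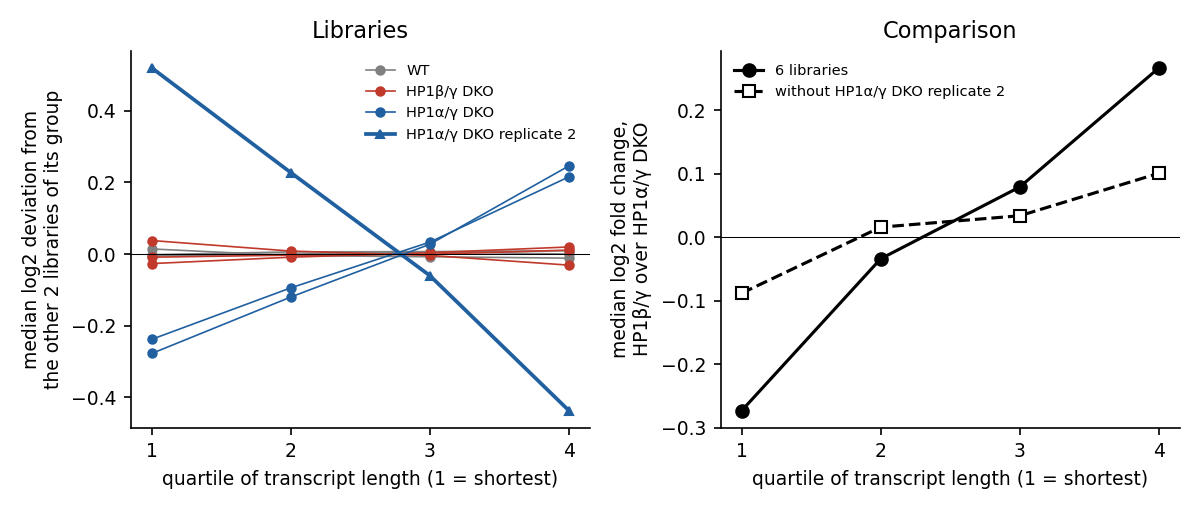
Left, the median log2 deviation of each library from the other 2 of its group, by quartile of transcript length, for *wild-type* set B (grey), *Hp1β/γ* Δ/Δ (red) and *Hp1α/γ* Δ/Δ (blue, replicate 2 as triangles). Right, the median log2 fold change of *Hp1β/γ* Δ/Δ over *Hp1α/γ* Δ/Δ ESCs in the same quartiles, with all 6 libraries (filled) and without replicate 2 (open). Replicate 2 runs from 0.52 to −0.44, and the slope of the comparison is smaller without it.

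Of 16210 genes tested, 3871 (23.9%) differed between the double mutants, which required an adjusted p below 0.05 and a log2 fold change beyond 1 in either direction. The split was uneven, with 2830 genes (17.5%) higher in *Hp1β/γ* Δ/Δ cells and 1041 (6.42%) higher in *Hp1α/γ* Δ/Δ cells. Without *Hp1α/γ* Δ/Δ replicate 2, 4209 of 16718 genes differed, 3100 (18.5%) higher and 1109 (6.63%) lower (25.2% in all), and 3550 genes were called in both fits, each in the same direction. The higher genes made up 73.1% of the calls, and 73.7% without that library. Length offsets removed a smooth trend with transcript length from every library, together with its mean level. With them the share was 58.6% (2234 against 1581, or 13.8% and 9.75% of the genes tested and 23.5% in all). They moved the median of all genes from 0.02 to −0.24, so values with length offsets hold this shift of all genes besides the trend. The groups of 3 did not overlap for 10285 genes (63.4%). On single chromosomes the share of genes called ran from 20.7% to 29.1%, and the median log2 fold change from −0.11 to 0.11.

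The genes with the largest differences towards *Hp1β/γ* Δ/Δ cells, among those above 5 CPM in the higher group, were transcripts of the 2-cell embryo together with a transporter, a WNT ligand and an actin. *Slc15a2*, a proton-coupled peptide transporter, had 12.7, 12.7 and 11.9 CPM in *Hp1β/γ* Δ/Δ cells, 0, 0 and 0.0911 CPM in *Hp1α/γ* Δ/Δ cells and 1.19, 1.43 and 0.969 CPM in *wild-type* ESCs. Only 2 counts were seen in the *Hp1α/γ* Δ/Δ libraries, and the ratio of counts was 383 with a 95% counting interval of 106 to 3165. In the *Hp1γ* Δ/Δ single mutant *Slc15a2* had 10.5, 9.53 and 8.41 CPM. *Wnt3*, a ligand of the WNT pathway that acts in the primitive streak, had 7.64, 8.38 and 8.96 CPM against 0.0479, 0.105 and 0.0911 CPM, with 1.85, 1.6 and 1.45 CPM in *wild-type* ESCs between the double mutants. Its log2 fold change was 6.64 (SE 0.25, adjusted p = 1.58e-05), and 6.81 without *Hp1α/γ* Δ/Δ replicate 2. *Acta1*, the skeletal muscle α-actin, had 9.38, 8.59 and 10.01 CPM against 0, 0.21 and 0.137 CPM. The *Hp1α/β* Δ/Δ double mutant, of the other deposited set, had 4.15, 5.28 and 4.96 CPM of *Wnt3* and 5.76, 6.46 and 6.2 CPM of *Acta1*. Its *Slc15a2* values were 0.701, 0.0406 and 0.873 CPM. *AA792892* had 7.13, 6.19 and 6.61 CPM in *Hp1β/γ* Δ/Δ cells and no count in the *Hp1α/γ* Δ/Δ and *wild-type* libraries, which makes it at least 45.5-fold higher than in *Hp1α/γ* Δ/Δ cells against a floor of 3 counts per library. The other genes of this rank were *Zscan4e*, *Zscan4d*, *Pramef25* and *Usp17la*, described with the 2-cell-like genes, *Spopfm2* and *Sprr2a2*. *Sprr2a2*, of the small proline-rich proteins of the skin barrier, had 20.8, 5.73 and 0.598 CPM in the *Hp1β/γ* Δ/Δ libraries, so that 1 library held most of its counts.

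The largest differences towards *Hp1α/γ* Δ/Δ cells, by the same rule, were led by *Tdpoz6*, *Septin1* and *Tbx3*. *Tdpoz6*, a TD and POZ domain gene, had 179, 101 and 178 CPM in *Hp1α/γ* Δ/Δ cells against 1.87, 1.39 and 1.53 CPM in *Hp1β/γ* Δ/Δ cells and 0.949, 1.25 and 0.837 CPM in *wild-type* ESCs, a log2 fold change of −6.53 (SE 0.32, adjusted p = 2.57e-05). *Septin1*, of the septin cytoskeleton, had 211, 335 and 218 CPM against 11.6, 10.1 and 11.1 CPM, with 29.8 to 30.8 CPM in *wild-type* ESCs between the double mutants. *Tbx3*, a T-box factor of the naive state, had 98.9, 84.5 and 98.2 CPM against 4.59, 4.97 and 5.34 CPM and 3.84 to 4.8 CPM in *wild-type* ESCs. The *Hp1α/γ* Δ/Δ libraries lay above all others for each of these 3 genes, and *Hp1β/γ* Δ/Δ cells did not differ from *wild-type* ESCs past the threshold for *Tdpoz6* and *Tbx3*. *Nfib*, a transcription factor of the nuclear factor I family, had 10.9, 8.52 and 14.7 CPM against 0.552, 0.295 and 0.448 CPM. *Stra8*, the gene that responds to retinoic acid at entry into meiosis, had 5.51, 11.2 and 5.65 CPM against 0.51, 0.126 and 0.411 CPM, the highest value being that of replicate 2. The log2 fold changes of the others were −5.26 for *Zfp264*, which is annotated as a transcribed unprocessed pseudogene, −4.82 for *Samd9l*, −4.60 for *Myo1f*, an unconventional myosin, −4.11 for *Fcgr2b*, an inhibitory Fc receptor, and −4.06 for *Pla2g7*, a secreted phospholipase.

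ESCs pass from a naive state, held by factors such as *Esrrb*, *Klf4* and *Tfcp2l1*, to a formative state marked by *Fgf5*, *Pou3f1* and *Otx2*, and the double mutants lay apart along these genes. Of 20 naive pluripotency genes, all of which passed the filter, 14 were higher in *Hp1α/γ* Δ/Δ cells and none in *Hp1β/γ* Δ/Δ cells, beside 6.42% and 17.5% of all genes. Their median log2 fold change was −1.22, beside 0.02 for all genes, and without *Hp1α/γ* Δ/Δ replicate 2 it was −1.26 with 13 genes called. *Nr0b1*, a nuclear receptor that partners *Pou5f1*, had 20.3, 19.7 and 20.4 CPM in *Hp1β/γ* Δ/Δ cells, 173, 220.4 and 186 CPM in *Hp1α/γ* Δ/Δ cells and 53.3, 57.4 and 54 CPM in *wild-type* ESCs. *Nr5a2*, a nuclear receptor of the naive network, had 13.7, 12 and 12.1 CPM against 108, 75.9 and 112 CPM and 20.9, 23.4 and 27.1 CPM in *wild-type* ESCs. *Dppa5a*, an RNA-binding protein of pluripotent cells, had 239, 242 and 248 CPM against 1133, 2352 and 1215 CPM and 529, 453 and 454 CPM in *wild-type* ESCs. For all 3 genes the *wild-type* libraries lay between the double mutants without overlap, and replicate 2 gave the highest *Hp1α/γ* Δ/Δ value for *Nr0b1* and *Dppa5a* and the lowest for *Nr5a2*.

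*Nanog*, a core pluripotency factor, had 266, 255 and 264 CPM in *Hp1β/γ* Δ/Δ cells, 539, 621 and 552 CPM in *Hp1α/γ* Δ/Δ cells and 191, 191 and 203 CPM in *wild-type* ESCs. Its log2 fold change was −1.07 (SE 0.09, adjusted p = 1.51e-04), and against *wild-type* ESCs the difference was 1.5 in *Hp1α/γ* Δ/Δ cells and 0.42, short of the threshold, in *Hp1β/γ* Δ/Δ cells. *Pou5f1*, which encodes OCT4, had 673, 691 and 711 CPM against 1079, 1782 and 1124 CPM and was not called at −0.88 (SE 0.19, adjusted p = 0.00819), although the groups did not overlap. Leaving out *Hp1α/γ* Δ/Δ replicate 1 brought it past the threshold at −1.01, and leaving out replicate 2 gave −0.65. *Sox2* had 238, 244 and 239.8 CPM against 351, 384 and 386 CPM and a log2 fold change of −0.58, also short of the threshold. Of the other called genes, *Esrrb* had 211, 215 and 208 CPM against 693, 565 and 676 CPM, and *Prdm14*, which represses *Dnmt3b* and primed genes, had 7.6, 5.81 and 7.54 CPM against 27.5, 30.7 and 30.5 CPM. *Klf2* was called with all libraries at −1.19 but not without *Hp1α/γ* Δ/Δ replicate 2, where it was −0.87. *Tdgf1*, a co-receptor of NODAL, had 0.04.

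Of 10 formative and primed genes, 6 were higher and 1 lower in *Hp1β/γ* Δ/Δ cells, beside 17.5% and 6.42% of all genes. The list had 1.22 as its median log2 fold change and the same counts without *Hp1α/γ* Δ/Δ replicate 2. *Fgf5*, a growth factor of the epiblast, had 3.65, 3.75 and 3.44 CPM in *Hp1β/γ* Δ/Δ cells, 0.0479, 0.105 and 0.182 CPM in *Hp1α/γ* Δ/Δ cells and 1.33, 0.95 and 1.28 CPM in *wild-type* ESCs. *Pou3f1*, which encodes OCT6, had 60.7, 58.3 and 57.4 CPM against 4.02, 6.21 and 3.96 CPM, and 27.3, 33.1 and 30.2 CPM in *wild-type* ESCs. *Sall2*, a zinc finger factor, had 22.7, 23.6 and 24.2 CPM against 4.02, 3.63 and 4.65 CPM, and 13, 14.6 and 14.1 CPM in *wild-type* ESCs. In each of these genes *Hp1β/γ* Δ/Δ cells lay above and *Hp1α/γ* Δ/Δ cells below *wild-type* ESCs, and no 2 groups overlapped. *Otx2*, a homeobox factor of the formative epiblast, was at 1.06 and passed the threshold, but not with length offsets, where it was 0.91. *Lef1*, a transcription factor of the WNT pathway, went the other way with 2.76, 2.86 and 2.84 CPM against 11.7, 13.8 and 12.6 CPM. *Zic2*, *Sox11* and *Sox3* were not called.

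**Figure D3:**
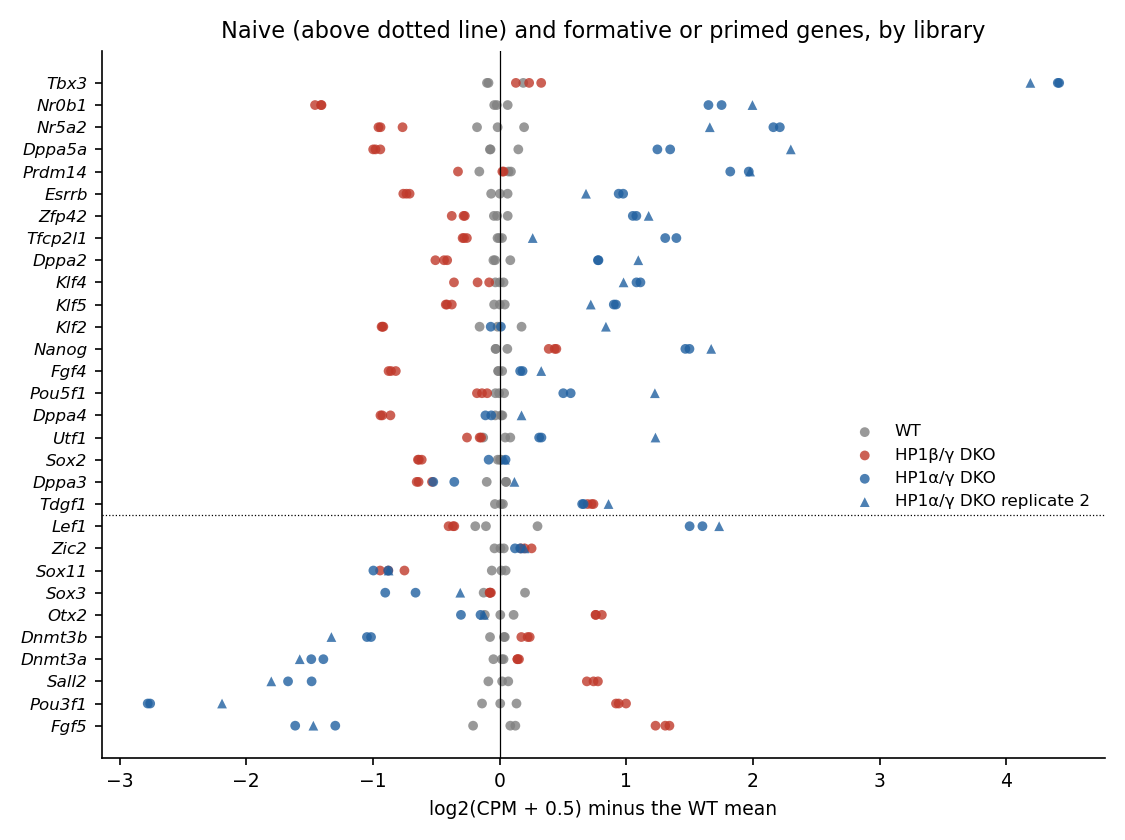
log2(CPM + 0.5) minus the mean of *wild-type* set B for each naive gene (above the dotted line) and each formative or primed gene (below it), 1 point per library, with *wild-type* (grey), *Hp1β/γ* Δ/Δ (red) and *Hp1α/γ* Δ/Δ (blue, replicate 2 as triangles). The 14 naive genes called lie to the right in *Hp1α/γ* Δ/Δ ESCs relative to *Hp1β/γ* Δ/Δ ESCs, and *Fgf5*, *Pou3f1* and *Sall2* lie in the reverse order.

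The DNA methylation enzymes were a list added after their values had been seen, so their counts are a description. Of 8 genes 2 were higher and 2 lower in *Hp1β/γ* Δ/Δ cells, beside 17.5% and 6.42% of all genes. *Dnmt3a* and *Dnmt3b*, the de novo methyltransferases, had 184, 185 and 184 CPM and 607, 614 and 586 CPM in *Hp1β/γ* Δ/Δ cells. In *Hp1α/γ* Δ/Δ cells the same genes had 59.1, 55.5 and 63.2 CPM and 257, 207 and 251 CPM, below the *wild-type* means of 167 CPM and 521 CPM. *Dnmt3l*, their catalytically inactive cofactor, had 173, 176 and 173 CPM against 726, 1002 and 739.9 CPM, with a *wild-type* mean of 265 CPM. *Tet2*, an enzyme that oxidises methylated cytosine, had 36, 39.8 and 37.4 CPM against 295, 86.2 and 271 CPM, with replicate 2 far below the other *Hp1α/γ* Δ/Δ libraries, and its log2 fold change of −2.49 became −2.88 without replicate 2.

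A few cells of an ESC culture transiently express genes of the 2-cell embryo, among them the *Zscan4*, *Usp17l*, *Tcstv* and *Tdpoz* families, which are switched on in the embryo by the homeobox factor DUX. The counts of the 20 genes on this list added up to 97.6 to 100.1 CPM in *Hp1β/γ* Δ/Δ libraries, 1.58 to 2.47 CPM in *Hp1α/γ* Δ/Δ libraries and 0.332 to 0.573 CPM in *wild-type* libraries. For these 20 genes every *Hp1β/γ* Δ/Δ library was thus far above every *Hp1α/γ* Δ/Δ and *wild-type* library. The list does not hold *Tdpoz6*, a gene of the *Tdpoz* family with 179, 101 and 178 CPM in *Hp1α/γ* Δ/Δ cells. This gene alone had more counts there than the whole list in *Hp1β/γ* Δ/Δ libraries. The order of the sums thus depends on which genes are listed. In bulk RNA, more cells in such a state and more RNA per cell cannot be told apart. In the *Hp1α* Δ/Δ and *Hp1β* Δ/Δ single mutants, of the other deposited set, the counts of the list added up to 0.185 to 0.429 CPM. The filter kept 19 of the 20 genes, mostly on their counts in *Hp1β/γ* Δ/Δ cells alone, and these genes could hardly fail to differ, so that their 19 calls are a description.

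*Zscan4f* had 13, 12.3 and 12.4 CPM in *Hp1β/γ* Δ/Δ cells against 0.192, 0.631 and 0.137 CPM, and *Zscan4e* had 9.3, 8.88 and 10.8 CPM against 0.144, 0 and 0 CPM. *Zscan4d* had 6.54, 7.87 and 8.33 CPM against 0.0958, 0 and 0.0911 CPM, and *Usp17la*, of a family of ubiquitin-specific proteases, had 5.77, 6.06 and 5.68 CPM against 0.144, 0 and 0.0456 CPM. These families hold near-identical copies between which the authors' counting may have split reads, so the value of a single copy is uncertain. *Zfp352*, a zinc finger gene, had 3.91, 3.71 and 3.17 CPM and no count in *Hp1α/γ* Δ/Δ cells, and was at least 24.6-fold higher against a floor of 3 counts per library. On the same floor *Tdpoz4* (3.95, 3.66 and 3.1 CPM) was at least 24.4-fold and *Tcstv3* (2.04, 2.11 and 2.65 CPM) at least 15.5-fold higher. *Pramef25*, of the PRAME family, had 8.92, 8.13 and 9.34 CPM against 0.0479, 0 and 0.228 CPM. *Tdpoz6* lies near *Tdpoz1* to *Tdpoz5* on chromosome 3 and ran the other way, with its counts in *Hp1α/γ* Δ/Δ cells.

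The promoters of the *Zscan4* genes are shown because these genes moved together. RefSeq promoters (GRCm38.p6, 250 bases before to 50 after the start) were found for 12 of the 20 genes. The TATA box letters TATAAAA, searched on both strands, were found in 1801 of 32851 promoters (5.48%) and in 7 of the 12, the 4 *Zscan4* promoters and those of *Usp17lb*, *Usp17lc* and *Usp17ld*. Stretches of 87 bases around this match are given 5′ to 3′ on the strand of the gene, with the match in capitals, 31 to 65 bases before the start. The 4 stretches shared 81 to 86 of 87 bases in pairs, and a match of letters does not show that a factor binds there.
Zscan4b (chr7:10905065-10905151, minus strand): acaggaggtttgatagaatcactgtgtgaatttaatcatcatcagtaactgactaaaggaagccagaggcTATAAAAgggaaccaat
Zscan4c (chr7:11005621-11005707, plus strand): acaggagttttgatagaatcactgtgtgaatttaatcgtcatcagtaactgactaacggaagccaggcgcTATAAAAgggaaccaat
Zscan4d (chr7:11166197-11166283, minus strand): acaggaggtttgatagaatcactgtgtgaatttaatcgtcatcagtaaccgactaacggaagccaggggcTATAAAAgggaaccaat
Zscan4f (chr7:11397814-11397900, plus strand): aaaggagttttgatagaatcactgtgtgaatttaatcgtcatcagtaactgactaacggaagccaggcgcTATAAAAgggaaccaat

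Of 11 trophoblast genes 10 were tested, and 6 were higher and 1 lower in *Hp1β/γ* Δ/Δ cells, with or without *Hp1α/γ* Δ/Δ replicate 2 and beside 17.5% and 6.42% of all genes. Their median log2 fold change was 1.52, and with length offsets 5 were higher and 1 lower. *Krt8* and *Krt18*, the keratins of simple epithelia and trophectoderm, led the list. *Krt8* had 413, 416 and 421 CPM in *Hp1β/γ* Δ/Δ cells, 18, 25.3 and 18.8 CPM in *Hp1α/γ* Δ/Δ cells and 91.3, 96.3 and 93.4 CPM in *wild-type* ESCs. *Krt18* had 288, 280.0 and 280.5 CPM against 14.3, 23.1 and 15 CPM and 70.3, 73.1 and 76.8 CPM in *wild-type* ESCs. The *wild-type* libraries lay between the double mutants compared here for both keratins, and the log2 fold change of *Krt8* was 4.39 (SE 0.15, adjusted p = 1.33e-05). The *Hp1α/β* Δ/Δ double mutant, of the other deposited set, had 231, 228 and 232 CPM of *Krt8* and 165, 166 and 159 CPM of *Krt18*. *Cdx2*, a homeobox factor of the trophectoderm, was near the edge of detection with 0.934, 0.758 and 1.53 CPM against 0.144, 0.263 and 0.365 CPM. *Tfap2a*, the 1 gene lower in *Hp1β/γ* Δ/Δ cells, had 0.297, 0.168 and 0.112 CPM against 1.25, 0.789 and 1.14 CPM. *Elf5* did not pass the filter. The keratins are shared by other epithelia, and no gene of this list other than these, *Krt7*, *Ets2*, *Cyp11a1* and *Cdx2* was higher.

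Of 11 mesoderm genes 8 were tested, of which 4 were higher and 1 lower in *Hp1β/γ* Δ/Δ cells, beside 17.5% and 6.42% of all genes. The counts of the list were the same without *Hp1α/γ* Δ/Δ replicate 2, and its median was 1.14. *T*, or Brachyury, the T-box factor of the primitive streak, had 5.35, 5.81 and 6.16 CPM in *Hp1β/γ* Δ/Δ cells, 0.479, 0.263 and 0.547 CPM in *Hp1α/γ* Δ/Δ cells and 0.379, 0.605 and 0.441 CPM in *wild-type* ESCs. *Hand1*, a helix-loop-helix factor of extra-embryonic mesoderm and trophoblast, had 19.6, 18.4 and 19.1 CPM against 1.63, 1.37 and 1.46 CPM and 4.74, 5.57 and 5.55 CPM. *Mixl1*, a homeobox factor of the streak, had 2.25, 1.52 and 1.94 CPM against 0.144, 0.263 and 0.365 CPM. All 3 were separated between the double mutants compared here, and for *T* the *Hp1α/γ* Δ/Δ libraries overlapped those of *wild-type* ESCs. In the *Hp1α/β* Δ/Δ double mutant *T* had 3.95, 3.78 and 5.83 CPM, which overlapped *Hp1β/γ* Δ/Δ cells. *Bmp4*, a ligand that induces mesoderm, was lower, with 6.45, 6.19 and 7.51 CPM against 33.2, 37.7 and 31.9 CPM and 3.89, 3.84 and 4.01 CPM in *wild-type* ESCs. *Msx1* was also higher, and *Eomes*, *Kdr* and *Msx2* were not called.

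Nodal signalling genes went both ways. Of 10 genes 3 were higher and 2 lower in *Hp1β/γ* Δ/Δ cells, beside 17.5% and 6.42% of all genes. The counts were 2 and 2 without *Hp1α/γ* Δ/Δ replicate 2, where the activin receptor gene *Acvr2b* was no longer called (1.31 and 0.95). *Lefty1* and *Lefty2*, a pair of secreted NODAL inhibitors that lie side by side on chromosome 1, went opposite ways. *Lefty1* had 332, 342 and 350.0 CPM in *Hp1β/γ* Δ/Δ cells against 70.5, 105 and 72.9 CPM in *Hp1α/γ* Δ/Δ cells, and 289, 310.3 and 286 CPM in *wild-type* ESCs. *Lefty2* had 279, 269 and 274 CPM against 862, 943 and 881 CPM, and 453, 466 and 447 CPM in *wild-type* ESCs. The *Hp1α/γ* Δ/Δ libraries were thus the lowest for the first and the highest for the second. Their sequences are alike, and counting may have split reads between them. *Gdf3*, a ligand of the family, had 51.7, 51.4 and 50.5 CPM against 121, 182 and 129.7 CPM.

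Primitive endoderm and neural genes showed no common direction. Of 18 primitive endoderm genes 10 were tested, with 3 higher and 2 lower, beside 17.5% and 6.42% of all genes. The median of 0.19 was near that of all genes. *Dab2*, an endocytic adaptor, had 10.7, 9.81 and 10.4 CPM against 0.287, 0.0526 and 0.319 CPM, with 6.01 to 8.2 CPM in *wild-type* ESCs. *Lama1*, a chain of basement membrane laminin, had 22.4, 21.9 and 22 CPM against 170.4, 87.7 and 158 CPM, with 107 to 119 CPM in *wild-type* ESCs. *Sox7*, a factor of parietal endoderm, had 1.06, 1.05 and 1.38 CPM against 5.32, 4.1 and 3.96 CPM. Of 12 neural genes 7 were tested, with 1 higher and 3 lower and a median of −0.70. *Nes*, the intermediate filament of neural progenitors, had 107, 107 and 96 CPM against 30.00, 30.6 and 29 CPM, while *Gbx2*, which is also a naive pluripotency factor, had 6.75, 6.91 and 6.61 CPM against 23, 30.2 and 22.4 CPM. *Ncam1*, a cell adhesion molecule, had 5.86, 6.7 and 5.94 CPM against 20.2, 13.3 and 17.7 CPM.

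Germline genes differed in both directions. Of 20 genes 18 were tested, and 8 were higher and 6 lower in *Hp1β/γ* Δ/Δ cells, beside 17.5% and 6.42% of all genes. The counts of the list were the same without *Hp1α/γ* Δ/Δ replicate 2, and its median was −0.37. With length offsets 6 were higher and 8 lower. Of the higher genes, *Mov10l1*, an RNA helicase of the piRNA pathway, had 15, 15 and 14.7 CPM in *Hp1β/γ* Δ/Δ cells against 1.44, 1.63 and 1.23 CPM, and *Tdrd1*, a Tudor protein of the same pathway, had 5.6, 4.21 and 4.41 CPM against 0.862, 0.473 and 0.775 CPM. *Ddx4*, *Mael*, *Brdt*, *Tex101*, *Stk31* and *Sycp3* were the other genes higher in *Hp1β/γ* Δ/Δ cells. The genes lower in *Hp1β/γ* Δ/Δ cells were *Hormad1*, *Sycp1*, *Syce1*, *Stag3*, *Smc1b* and *Tex11*, which act on the axis and synapsis of meiotic chromosomes. *Stag3*, a meiotic cohesin, had 8.32, 8.13 and 7.43 CPM in *Hp1β/γ* Δ/Δ cells against 35.3, 24.5 and 34 CPM in *Hp1α/γ* Δ/Δ cells and 15.7, 13.6 and 15.3 CPM in *wild-type* ESCs. *Sycp3*, of the same axis, went the other way with 9.25 CPM against 3.68 CPM. In the *Rhox* cluster on chromosome X, where most copies were not detected and 4 of 32 were tested, *Rhox5* was higher at 19.6, 19.4 and 21.8 CPM against 5.37, 10.4 and 5.79 CPM. *Rhox1* had 1 count in *Hp1β/γ* Δ/Δ cells against 1.58, 1.89 and 1.0 CPM, and *Rhox6* had −1.64, a call that was lost without *Hp1β/γ* Δ/Δ replicate 2 (−1.70, adjusted p = 0.0575 in edgeR) or replicate 3 (−1.38, adjusted p = 0.0612 in edgeR).

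Of 28 imprinted genes 27 were tested, with a median of 1.0. Of these, 13 were higher and 0 lower in *Hp1β/γ* Δ/Δ cells, beside 17.5% and 6.42% of all genes. Without *Hp1α/γ* Δ/Δ replicate 2 the counts were 14 and 1, and with length offsets 8 and 1, and many of these transcripts are longer than most (median 4492 bases against 2707 for all genes tested). *Igf2*, a paternally expressed growth factor, had 90.1, 85.4 and 85.1 CPM in *Hp1β/γ* Δ/Δ cells, 10.4, 12 and 12.2 CPM in *Hp1α/γ* Δ/Δ cells and 75.6, 75 and 78.2 CPM in *wild-type* ESCs. *H19*, the maternally expressed RNA of the same locus on chromosome 7, had 47.5, 50.6 and 49.1 CPM against 10.1, 12.9 and 9.98 CPM and 0.664, 0.216 and 0.705 CPM in *wild-type* ESCs. Both double mutants were above *wild-type* ESCs for *H19*, while for *Igf2* the *Hp1β/γ* Δ/Δ libraries were slightly above and the *Hp1α/γ* Δ/Δ libraries far below *wild-type* ESCs. The *Hp1α/β* Δ/Δ double mutant, of the other deposited set, had 26.5, 27.8 and 28.1 CPM of *H19* and 122, 132 and 130 CPM of *Igf2*. *Magel2*, of the Prader-Willi region, had 4.67, 5.26 and 4.93 CPM against 0.527, 0.368 and 0.729 CPM, and *Sgce* had 6.16, 5.05 and 5.19 CPM against 1.05, 1.53 and 1.0 CPM. *Meg3* and *Rian*, the maternal non-coding RNAs of the *Dlk1* locus, had log2 fold changes of 1.25 and 1.45, which with length offsets were 0.58 and 0.85 and were not called. *Airn* had no count in *Hp1α/γ* Δ/Δ cells and was at least 6.48-fold higher in *Hp1β/γ* Δ/Δ cells against a floor of 3 counts per library, but it overlaps *Igf2r* in antisense and the sources do not say whether counting used the strand. The fibroblast markers described next moved in the same direction, and their part in these differences was not tested.

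The 15 markers of feeder fibroblasts added up to 156, 158 and 163 CPM in *Hp1β/γ* Δ/Δ libraries, 26.4, 32.4 and 26.8 CPM in *Hp1α/γ* Δ/Δ libraries and 89.5, 98.1 and 102 CPM in *wild-type* libraries. The double mutants differed by 130.3 CPM (exact permutation test, two-sided, p = 0.1, the smallest that 3 against 3 libraries allow), with all 3 *Hp1β/γ* Δ/Δ libraries above and all 3 *Hp1α/γ* Δ/Δ libraries below the *wild-type* ones. In the *Hp1β* Δ/Δ and *Hp1α* Δ/Δ single mutants, of the other deposited set, the sums were 84.3 to 92.8 CPM and 70.4 to 78.4 CPM. Of the 10 markers tested 8 were higher and none lower, beside 17.5% and 6.42% of all genes. Without *Hp1α/γ* Δ/Δ replicate 2, 12 of 13 were higher and none lower. *Tagln*, an actin-binding protein, made up most of the sum in *Hp1β/γ* Δ/Δ libraries, with 102, 105 and 107 CPM against 9.25, 15.2 and 8.79 CPM and 29.9, 28.8 and 34.1 CPM in *wild-type* ESCs. *Acta2*, smooth muscle actin, had 5.9, 5.14 and 6.57 CPM against 0.144, 0.158 and 0.228 CPM and 6.07, 6.78 and 6.96 CPM, and *Col1a2* had 3.65, 2.86 and 2.88 CPM against 0.335, 0.0526 and 0.0456 CPM and 4.7, 6.35 and 6.61 CPM. For *Acta2* the *Hp1β/γ* Δ/Δ libraries overlapped *wild-type* ESCs and for *Col1a2* they were below them, and *Hp1α/γ* Δ/Δ cells were far below both. *Postn* and *Twist2* had no count in *Hp1α/γ* Δ/Δ cells, and *Postn*, *Lum*, *Dcn* and *S100a4* were under 1 CPM in all the groups. Without *Tagln*, a sum computed after the values had been seen, the other 14 markers added up to 52.6 to 56.0 CPM in *Hp1β/γ* Δ/Δ libraries, 17.2 to 18.0 CPM in *Hp1α/γ* Δ/Δ libraries and 59.6 to 69.3 CPM in *wild-type* libraries, so that *Hp1β/γ* Δ/Δ libraries were then below the *wild-type* ones and *Hp1α/γ* Δ/Δ libraries still below both. Some of these genes are also expressed by differentiating ESCs, and the share of MEF RNA in each library was not tested.

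Related genes moved with these markers, and the collagen list shares genes with them, among these *Col1a2* and *Col6a1*. Of 44 collagen genes 34 were tested, 21 higher and 2 lower in *Hp1β/γ* Δ/Δ cells, beside 17.5% and 6.42% of all genes. The median of the collagens was 1.62, or 1.04 with length offsets, where 17 were higher and 6 lower. Without *Hp1α/γ* Δ/Δ replicate 2, 22 of 35 were higher and 2 lower. *Col4a2* and *Col4a1*, the basement membrane chains, had 32.3 CPM and 52 CPM in *Hp1β/γ* Δ/Δ cells against 9.73 CPM and 22.6 CPM. *Col6a1*, of microfibrillar collagen, had 6.37, 6.02 and 6.69 CPM against 0.815, 0.473 and 0.501 CPM, *Col25a1* had 4.02 and *Col16a1* 2.92. *Col20a1* and *Col26a1* were lower, at −2.36 and −2.11. Of 13 contractile genes 12 were tested, 6 higher and none lower. *Ccn1*, a matricellular target of YAP, had 110.1, 105 and 111 CPM against 24.6, 25.6 and 23.5 CPM, and *Tpm1* and *Tpm2*, the tropomyosins, had log2 fold changes of 1.70 and 1.72. Of 58 clustered protocadherins, cell adhesion genes that share 3′ exons in part, 24 were tested, 11 higher and none lower, or 7 higher with length offsets and 12 without *Hp1α/γ* Δ/Δ replicate 2. *Pcdhgc5* was not called when any 1 of the *Hp1β/γ* Δ/Δ libraries was left out.

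Many genes of class I antigen presentation and many interferon-inducible GTPases were lower in *Hp1α/γ* Δ/Δ than in *Hp1β/γ* Δ/Δ cells. Of 30 genes of class I presentation and interferon-inducible GTPases, a list added after their values had been seen, 26 were tested, with a median of 1.74. Of these, 18 were higher and none lower in *Hp1β/γ* Δ/Δ cells (20 of 28 without *Hp1α/γ* Δ/Δ replicate 2), beside 17.5% of all genes higher. Since the values were known when the list was made, this count is a description. With length offsets 16 were higher and 1, *Gbp4*, lower. The sums of the feeder markers lay in the same order of the double mutants, and their part in these differences was not tested. *Gbp2*, a guanylate-binding protein, had 52.3, 49.4 and 45.6 CPM in *Hp1β/γ* Δ/Δ cells, 0.815, 1.53 and 1.14 CPM in *Hp1α/γ* Δ/Δ cells and 26.5, 23.1 and 24 CPM in *wild-type* ESCs. *Gbp3* had 8.07, 8.0 and 7.99 CPM against 0.0958, 0.105 and 0.182 CPM and 5.22, 4.71 and 4.94 CPM, and *Gbp7* 8.02, 8.13 and 7.73 CPM against 0.144, 0.368 and 0.0456 CPM and 5.74, 5.36 and 6.65 CPM. The *Hp1α/γ* Δ/Δ libraries were the lowest for these genes, without overlap with *wild-type* ESCs. *Tap1* and *Tap2*, the peptide transporter of class I loading, had means of 12.7 CPM and 14.1 CPM against 1.36 CPM and 1.75 CPM, and *Nlrc5*, the activator of class I genes, had 1.91 CPM against 0.0495 CPM. *Cxcl10*, a chemokine, was highest in *Hp1β/γ* Δ/Δ cells at 7.18, 6.11 and 8.33 CPM, against 0.0456 to 0.287 CPM in *Hp1α/γ* Δ/Δ and 0.379 to 0.605 CPM in *wild-type* ESCs. *H2-Q6*, *H2-Q7* and *H2-Q4* belong to a family of near-identical class I genes, and their separate values are uncertain.

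Beside 17.5% and 6.42% of all genes, 3 were higher and 1 lower in *Hp1β/γ* Δ/Δ cells of the 8 interferon response genes tested in a shorter list of 12. Their counts added up to 123 to 130 CPM in *Hp1β/γ* Δ/Δ libraries, 211 to 237 CPM in *Hp1α/γ* Δ/Δ libraries and 136 to 144 CPM in *wild-type* libraries, most of the *Hp1α/γ* Δ/Δ sum being that of *Ddx58*. Against *wild-type* ESCs, 2 were higher and 3 lower of the 6 tested in *Hp1α/γ* Δ/Δ cells. *Oasl2*, an oligoadenylate synthetase-like protein, had 14.4, 13.5 and 15.8 CPM against 0.575, 0.841 and 0.729 CPM and 8.25, 8.94 and 7.49 CPM in *wild-type* ESCs. *Ifih1*, which encodes the RNA sensor MDA5, had 1.36, 1.22 and 1.87 CPM in *Hp1β/γ* Δ/Δ cells and 3 counts in all in *Hp1α/γ* Δ/Δ cells, a ratio of 30.9 with a 95% counting interval of 10.3 to 152. *Isg15*, a ubiquitin-like modifier, had 1.36, 1.26 and 1.42 CPM against 0.192, 0.21 and 0 CPM. *Ddx58*, which encodes the RNA sensor RIG-I, ran the other way, with 34.4, 34.4 and 32.4 CPM against 164, 155 and 166 CPM and 42.7, 41.6 and 45.6 CPM in *wild-type* ESCs. The double mutants were thus separated in opposite directions for the genes of the RNA sensors MDA5 and RIG-I.

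**Figure D4:**
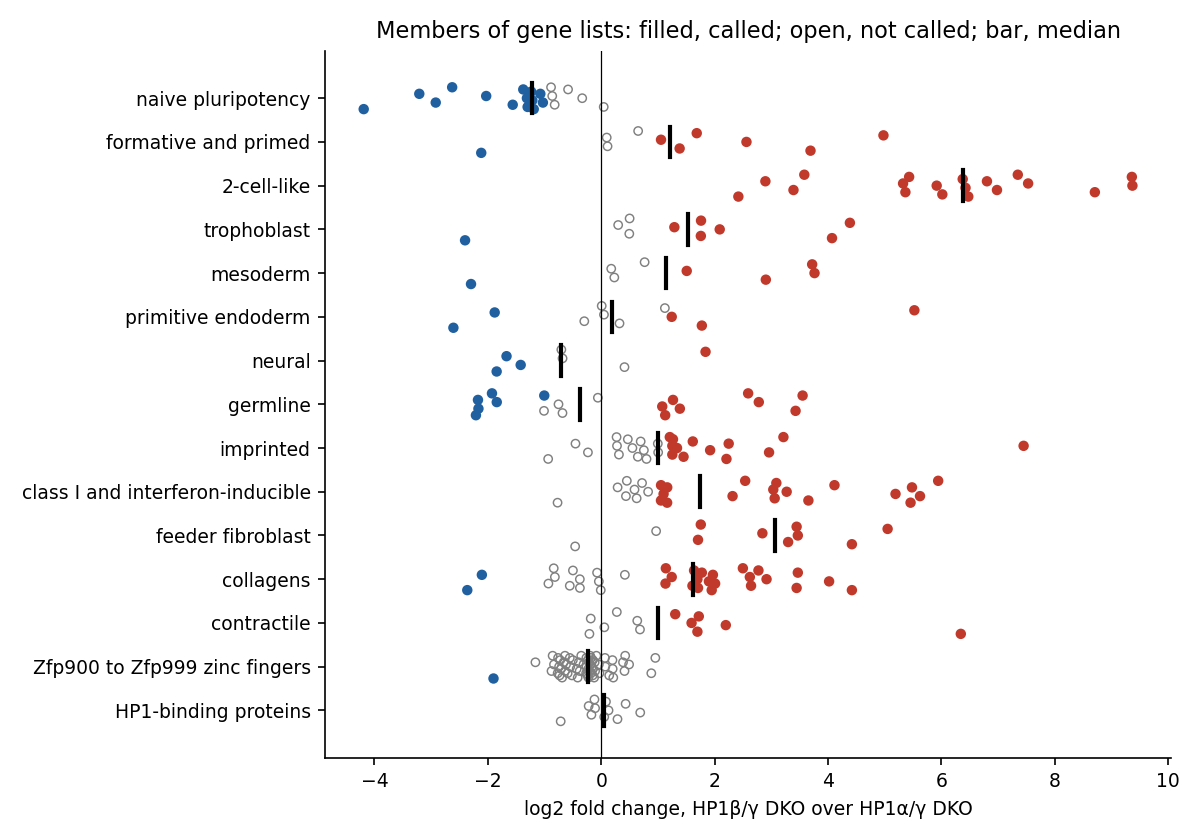
log2 fold change of *Hp1β/γ* Δ/Δ over *Hp1α/γ* Δ/Δ ESCs for each tested member of 15 gene lists, filled where called (red, higher in *Hp1β/γ* Δ/Δ ESCs, blue, lower) and open where not, with the median of a list as a bar. The naive genes lie to the left with a median of −1.22 and the 2-cell-like genes to the right with 6.38, or 5.43 with genes at no count set to their floor, while the zinc finger and HP1-binding lists have medians of −0.24 and 0.05.

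The genes that write, erase and bind H3K9 methylation were compared beside the 23.9% called among all genes. Of 6 H3K9 methyltransferase genes 1 was called, *Suv39h1*, which had 44.4, 43.9 and 45.5 CPM in *Hp1β/γ* Δ/Δ cells, 19, 14.5 and 18.2 CPM in *Hp1α/γ* Δ/Δ cells and 48.2, 45.7 and 43.5 CPM in *wild-type* ESCs, a log2 fold change of 1.42 (SE 0.13, adjusted p = 2.65e-04). *Setdb1* had 165, 160.3 and 161 CPM against 183, 138 and 179 CPM and its groups overlapped. *Suv39h2* had 42.4, 39.6 and 41.3 CPM against 41.4, 37.7 and 40.3 CPM, also with overlap. The sign of *Setdb1* and *Suv39h2* was negative with length offsets (−0.42 and −0.32, beside a median of −0.24 for all genes). *Ehmt2*, which encodes G9a, had 146, 151 and 149 CPM against 236, 267 and 228 CPM and a log2 fold change of −0.66 that passed the threshold only with length offsets (−1.05). *Ehmt1*, which encodes GLP, had 0.52 and *Setdb2* −0.51. Of 10 H3K9 demethylase genes 9 were tested, 2 higher and 1 lower, or none and 2 with length offsets. *Phf2* and *Kdm7a*, the higher pair, were called only with *Hp1α/γ* Δ/Δ replicate 2, and without it their log2 fold changes of 1.04 and 1.18 were 0.80 and 0.85 and were not called. *Kdm7a* also lost its call without any 1 of the *Hp1β/γ* Δ/Δ libraries. *Kdm3a*, the lower one, had −1.01 and −1.16 without that library, but −0.96, −0.93 and −0.97 without *Hp1α/γ* Δ/Δ replicate 1, *Hp1α/γ* Δ/Δ replicate 3 or *Hp1β/γ* Δ/Δ replicate 3, where it was not called. None of 11 genes of HP1-binding proteins was called, with a median of 0.05, which was −0.10 without *Hp1α/γ* Δ/Δ replicate 2. With length offsets the median was −0.40, beside −0.24 for all genes, and 1 gene, *Trim28*, was lower.

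Of 15 p53 target genes 14 were tested, 4 higher and none lower, beside 17.5% and 6.42% of all genes, with a median of 0.65, and 3 were higher with length offsets. *Bbc3*, which encodes the BH3-only protein PUMA, had 27.5, 28.5 and 31.1 CPM against 8.62, 11.4 and 7.47 CPM, and *Perp*, of the desmosome, had 53, 49.8 and 49.5 CPM against 20.3, 25.5 and 20.2 CPM. *Trp53inp1* had 1.41, or 0.95 and no call with length offsets, and *Cdkn1a*, the inhibitor of cyclin-dependent kinases, had 1.04, which was 0.98 and 0.997 and not called without *Hp1α/γ* Δ/Δ replicate 1 or 3. Of 17 genes of hypoxia and glycolysis none was higher and 3 lower in *Hp1β/γ* Δ/Δ cells, or 6 with length offsets. *Pfkp*, a phosphofructokinase, had 151, 155 and 159 CPM against 617, 395 and 592 CPM, *Ndufa4l2*, induced in hypoxia, had 4.42, 3.92 and 4.44 CPM against 18, 37.5 and 19.5 CPM, and *Ankrd37* had −1.60. Of 64 zinc finger genes named *Zfp900* to *Zfp999* 62 were tested and 1 was called with all libraries, or 2 without *Hp1α/γ* Δ/Δ replicate 2. With length offsets 6 were lower, with a median of −0.48 beside −0.24 for all genes. The gene called with all libraries was *Zfp990*, with 23.2, 22.4 and 23.9 CPM against 96.9, 71 and 100.3 CPM. None of 4 replication-dependent histone genes tested was called with all libraries, and 1, *Hist1h2br*, was lower without *Hp1α/γ* Δ/Δ replicate 2 (−2.06, beside −1.97). Of 13 mitochondrial protein genes 1 was called, *mt-Nd3*, whose log2 fold change of −1.14 was −0.76 and not called without *Hp1α/γ* Δ/Δ replicate 2, and whose call was also lost without *Hp1α/γ* Δ/Δ replicate 3 or any 1 of the *Hp1β/γ* Δ/Δ libraries. None of 39 *Hox* genes passed the filter.

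The same exchange of HP1α for HP1β was compared in cells that keep HP1γ, between the *Hp1β* Δ/Δ and *Hp1α* Δ/Δ single mutants, which share no library with the double mutants. There 958 of 15728 genes differed (6.09%), 409 (2.60%) higher and 549 (3.49%) lower in *Hp1β* Δ/Δ ESCs. Of 15084 genes tested in both, 3322 differed between the double and 865 between the single mutants, and 495 in both, which is 14.9% of the former and 57.2% of the latter. Of these, 205 differed in the same direction, 119 higher and 86 lower. Another 290 differed in opposite directions, 230 higher and 60 lower in *Hp1β/γ* Δ/Δ cells. Without *Hp1α/γ* Δ/Δ replicate 2 the numbers were 213 and 291. Most shared calls were higher in the double and lower in the single comparison. Opposite directions would thus be the more frequent even if the directions were unrelated, and an excess beyond this was not tested. Across the 15084 genes the log2 fold changes had a Pearson correlation of −0.12 and a Spearman correlation of −0.17, a description over genes that are not independent. In one model of the 12 libraries the difference of the 2 comparisons (their interaction) passed the same threshold for 4415 of 17089 genes (25.8%), 2869 (16.8%) with the larger value in the double mutants and 1546 (9.05%) with the smaller.

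*Cbx1*, *Wnt3*, *Hand1*, *Cryab*, *Vamp9*, *Maml2*, *Dppa5b* and *Ndufa4l2* led the genes that differed in the same direction. *Wnt3* had 5.83, 5.56 and 5.5 CPM in *Hp1β* Δ/Δ ESCs and 1.3, 1.12 and 1.06 CPM in *Hp1α* Δ/Δ ESCs, beside 7.64 to 8.96 CPM and 0.0479 to 0.105 CPM in the double mutants, and its interaction was 4.29 (SE 0.32, adjusted p = 7.55e-07) in edgeR. *Hand1* had 19.1, 15.2 and 14.9 CPM against 3.81, 3.05 and 3.56 CPM in the single mutants. *Cryab*, a small heat shock protein, had 13, 10.5 and 10.6 CPM against 1.48, 2.27 and 3.38 CPM in the single and 23.1, 19.9 and 21.4 CPM against 1.29, 3.1 and 1.32 CPM in the double mutants. For each of the 3 genes the mutants without HP1β were above the mutants without HP1α in both backgrounds. *Maml2*, a co-activator of Notch, was below, with −2.43 in the double and −2.65 in the single mutants, and *Vamp9* and *Dppa5b*, the latter annotated as an unprocessed pseudogene, had 4.76 and −2.42 in the double and 2.84 and −2.39 in the single mutants. *Krt8* was also higher in *Hp1β* Δ/Δ ESCs, with 235, 198 and 198 CPM against 82.7, 81.6 and 81.9 CPM, and its interaction of 2.95 passed the threshold.

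Among the genes with the largest opposite differences were *Slc15a2*, *Pla2g7*, *H2-Q6*, *Ngfr* and *Oasl2*. *Oasl2* had 2.32, 2.32 and 2.19 CPM in *Hp1β* Δ/Δ ESCs against 8.65, 9.36 and 6.76 CPM in *Hp1α* Δ/Δ ESCs, so the line without HP1β was lower among the single mutants and the line that kept HP1β was lower among the double mutants. *Gbp2* followed the same order with 4.74, 6.48 and 5.92 CPM against 17, 17.8 and 15.1 CPM. *Pla2g7* had 7.22, 7.79 and 6.71 CPM against 1.17, 0.472 and 1.3 CPM in the single mutants, the reverse of the double mutants. *Ngfr*, the p75 neurotrophin receptor, had 166, 159 and 145 CPM against 33.4, 34.3 and 30.04 CPM in the single and 40.2, 39.7 and 37.6 CPM against 212, 192 and 212 CPM in the double mutants. The groups did not overlap in either comparison for *Oasl2*, *Gbp2*, *Pla2g7* and *Ngfr*. By list, 14 naive genes differed between the double mutants, and 2 of 20 between the single mutants. These were *Klf4*, with 19 CPM in *Hp1β* Δ/Δ ESCs against 42.1 CPM, and *Dppa3*, a maternal factor that guards DNA methylation, with 16.3 CPM against 34.9 CPM. *Klf4* differed in the same direction between the double mutants, and *Dppa3* was not called there.

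**Figure D5:**
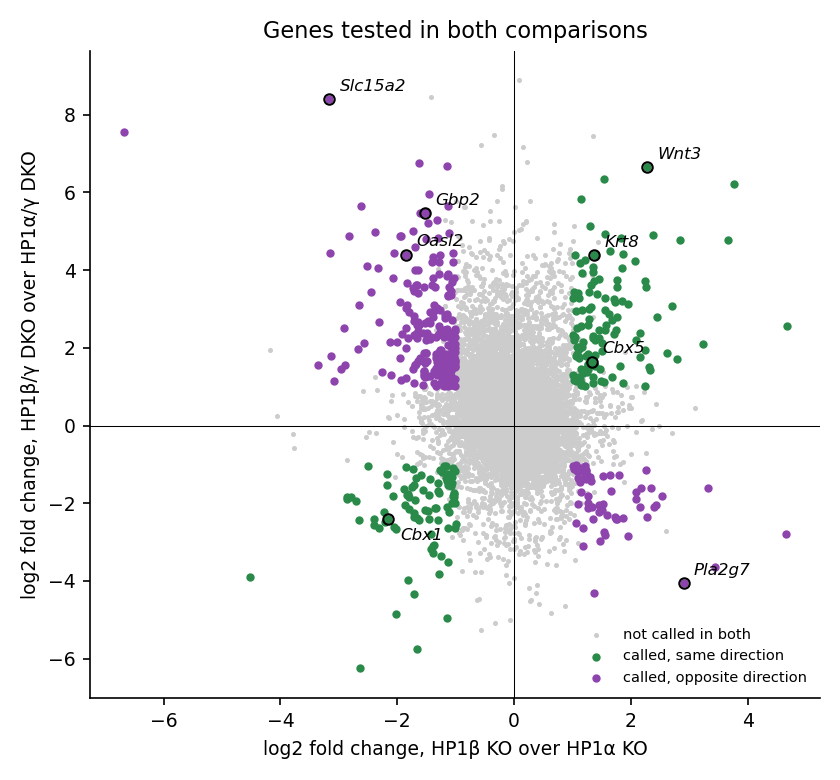
log2 fold change of *Hp1β/γ* Δ/Δ over *Hp1α/γ* Δ/Δ ESCs (vertical) against that of *Hp1β* Δ/Δ over *Hp1α* Δ/Δ ESCs (horizontal) for the 15084 genes tested in both, with genes called in both and in the same direction in green and in opposite directions in purple. The 290 purple genes lie mostly at the upper left, where 230 are higher in *Hp1β/γ* Δ/Δ and lower in *Hp1β* Δ/Δ ESCs. More genes were called higher than lower on the vertical axis, and more lower than higher on the horizontal one. This alone places more genes at the upper left.

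Set against *wild-type* set B, which both comparisons share, 1929 of 16263 genes (11.9%) differed in *Hp1β/γ* Δ/Δ cells, 1191 (7.32%) higher and 738 (4.54%) lower. In *Hp1α/γ* Δ/Δ cells 3657 of 15841 genes (23.1%) differed, 1069 (6.75%) higher and 2588 (16.3%) lower, and 3802 without replicate 2. Of the naive genes 9 of 20 were higher and none lower in *Hp1α/γ* Δ/Δ cells, while in *Hp1β/γ* Δ/Δ cells none was higher and 1 lower. Of the formative genes 5 of 10 were lower and 1 higher in *Hp1α/γ* Δ/Δ cells, and 1 was higher in *Hp1β/γ* Δ/Δ cells. Of the trophoblast genes 6 of 9 tested were lower in *Hp1α/γ* Δ/Δ cells, and 3 of 9 were higher and 1 lower in *Hp1β/γ* Δ/Δ cells. Of the imprinted genes 13 of 27 were lower and 1 higher in *Hp1α/γ* Δ/Δ cells, and 2 of 28 were higher and 6 lower in *Hp1β/γ* Δ/Δ cells. Of the class I and interferon-inducible genes 15 of 25 were lower in *Hp1α/γ* Δ/Δ cells and 5 of 27 higher in *Hp1β/γ* Δ/Δ cells. All 19 tested 2-cell-like genes were higher in *Hp1β/γ* Δ/Δ cells. They passed the filter mostly on their counts in these cells, so their calls are a description here too. In *Hp1α/γ* Δ/Δ cells none of the 20 passed the filter.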

How the data were processed

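RNA-seq libraries of mouse ESCs were grouped by their genotype labels. The submitters' processing notes name the build GRCm38.p5 and the tools TopHat2 2.1.1, RSEM and edgeR without giving their roles, and the paper names DESeq2 for differential expression. The authors deposited expected counts and TPM for each library beside fold changes and p values, which were not used here and whose tool the sources do not settle. The 6 tables used list 55487 genes, of which 55227 matched GENCODE M21. Total counts were 22611958, 22682149 and 25743149 in *Hp1β/γ* Δ/Δ libraries, 22516230, 23228375 and 23831417 in *Hp1α/γ* Δ/Δ libraries and 20227691 to 22232704 in *wild-type* set B, and intervals and floors cover counting error only. The deposited expected counts were rounded to whole numbers, filtered with filterByExpr (minimum count 10), scaled with TMM and fitted in edgeR 4.0.16 (R 4.3.3) by the quasi-likelihood test for the 3 against 3 libraries, without covariates. Calls required an adjusted p (Benjamini-Hochberg) below 0.05 and a log2 fold change beyond 1 in either direction. TPM as deposited served only to compare levels between genes.

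The single mutants were tested in the same way, and the interaction in a fit of 12 libraries. Alternatives were no or stricter count filters, DESeq2 1.42.0 and its size factors, limma 3.58.1 voom with library weights, a joint fit, no fold threshold, offsets from a spline on transcript length with 5 degrees of freedom, a replicate block and each library left out. Of these, the library weights, the length offsets and the leaving out of *Hp1α/γ* Δ/Δ replicate 2 bear on that library. The length offsets also took out the mean level of each library. Code was tested on simulated data. The genes compared and the 26 lists were chosen with earlier results of these data known, and 2 more lists were added after seeing values. Named genes were the HP1 and H3K9 methyltransferase genes, *Pou5f1*, *Sox2* and *Nanog*, the 10 largest differences in each direction among genes whose higher group reached 5 CPM and that were called with and without *Hp1α/γ* Δ/Δ replicate 2 in groups that do not overlap, up to 4 called members of each list by size, and 8 and 6 genes called in the same and in opposite directions in the single mutants. Other members of a list were named, after their values were seen, to account for its counts. The values of 2 of these genes are not reported here. Promoters were taken from RefSeq, and guides from the supplementary sequences of the study.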

Additional observations from a re-analysis of the deposited data

Results flagged for a closer look

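The difference between β/γ and α/γ mutants was not that between β and α mutants for many genes. The interaction passed the threshold for 4415 genes by the quasi-likelihood test of edgeR. The 290 genes called in opposite directions in the double and single mutants pass it by the way they were chosen, and that they do is no further result.

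Among the named genes with opposite differences, the interaction on the log2 scale was 11.49 for *Slc15a2*, 6.56 for *H2-Q6* and 6.17 for *Oasl2*, which were relatively higher in *Hp1β/γ* Δ/Δ ESCs. It was −7.04 for *Pla2g7* and −4.69 for *Ngfr*, which were relatively higher in *Hp1α/γ* Δ/Δ ESCs. In *Hp1β* Δ/Δ ESCs *Slc15a2* had 0, 0.394 and 0 CPM, so that replicate 2 held all its counts. In *Hp1α/γ* Δ/Δ ESCs it was below the limit of 3 counts per library (0, 0 and 0.0911 CPM). The size of its interaction therefore depends on that *Hp1β* Δ/Δ library and on the prior count of the fit. Groups of 3 libraries were not tested for single outlying values.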

How the results depend on the processing

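The 3871 genes called (2830 higher, 1041 lower in *Hp1β/γ* Δ/Δ ESCs) became 3848 with relative log scaling, 4227 with DESeq2 (3010 and 1217), 4028 with voom and library weights, 4083 in the joint fit and 4399 with genes of at least 1 count kept. Length offsets gave 3815, with 1581 lower. A minimum of 10 counts in every library gave 2522, with 1785 higher, and it removes genes silent in 1 group. With no fold threshold there were 7418 (4294 and 3124). For the single mutants, the stricter count filter left 262 higher genes, and no fold threshold gave 6233 (3043 and 3190). For the interaction the same settings gave 986 with the smaller value, and 8167 with 4061 smaller. Without a fold threshold 1059 genes were called in both comparisons in the same and 2161 in opposite directions.

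Leaving out 1 library at a time gave 3497 to 4209 genes (2573 to 3100 higher, 924 to 1127 lower), 868 to 1050 in the single mutants (376 to 466 and 480 to 584), and 4219 to 4625 for the interaction (2753 to 3053 and 1348 to 1691). The imprinted list had 8 higher and 1 lower with length offsets, and 14 and 1 without *Hp1α/γ* Δ/Δ replicate 2. The sign of *Setdb1* (0.01) turned to −0.031 with relative log scaling, −0.035 with DESeq2, −0.12 with voom, −0.019 in the joint fit and −0.42 with length offsets, and with 1 library left out it ran from −0.13 (without *Hp1α/γ* Δ/Δ replicate 2) to 0.083. *Suv39h2* (0.10) turned to −0.32 with length offsets, where the median of all genes was −0.24. The cause was not tested. Of 116 named genes 108 were called, 105 without *Hp1α/γ* Δ/Δ replicate 2 and 104 with length offsets. *Pcdhgc5* was not called without any 1 of the *Hp1β/γ* Δ/Δ libraries (adjusted p from 0.052 to 0.0789 in edgeR).

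Same-numbered libraries of the double mutants had correlations of 0.0512, −0.0472 and −0.103 between their deviations from the group means. *Hp1α/γ* Δ/Δ replicate 2, which stood apart, shapes the deviations of all libraries of its group. These values therefore cannot show whether replicate numbers pair the samples. With a replicate block 3717 genes were called (2755 and 962), 926 in the single mutants and 4288 for the interaction. With the block and length offsets 3679 were called, *Setdb1* was at −0.42 and *Suv39h2* at −0.32.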
